A study of Mus musculus with 4 samples.

Results

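Genes of 7 transcription factors of the T helper 17 (Th17) program, Rora, Batf, Irf4, Maf, Ahr, Nfkbiz and Bhlhe40, were followed through 4 libraries of RNA from mouse CD4+ T cells. They were taken by name as known regulators of Th17 differentiation, with earlier results of these data known, and all 7 were found among the 19555 rows that every library shared. Naive CD4+ T cells of C57BL/6 mice, sorted from spleen and lymph nodes, were activated in the presence of TGF-β1, a transforming growth factor, and interleukin 6 (IL-6), and harvested after 3 days. The groups were Smad4 KO cells at the fever-range temperature of 39.5 °C, Smad4 KO cells at 37 °C, wild-type (WT) cells at 39.5 °C and WT cells at 37 °C, with 1 library in each. Smad4 encodes the shared partner of the receptor-activated SMAD proteins of TGF-β signalling. The design sets fever-range heat against normal body temperature and asks whether the response depends on Smad4. The sources used here do not say which part of Smad4 is deleted, in which cells, or whether animals were pooled.

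Th17 identity rests on a network in which IL-6 acts through STAT3 and TGF-β through SMAD proteins to induce nuclear receptors such as RORα. The AP-1 factor BATF pairs with JUN proteins and binds DNA together with IRF4, an interferon regulatory factor, and the pair opens chromatin at Th17 genes. Around this core, MAF controls IL-10 and IL-21, AHR is a ligand-activated sensor that drives IL-22, Nfkbiz encodes IκBζ, a nuclear cofactor of NF-κB, and BHLHE40 is an E-box repressor that restrains Il10 and supports inflammatory cytokine output.

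Expression was given as RPKM, the reads on a gene divided by its exon length and by library size. RPKM is a level per length, so levels of different genes can be set side by side. Whole reads recovered from the values summed to between 18048479 and 18474773 a library. With 1 library a group, a ratio between a pair of libraries has no replicate check. Its 95% interval (Clopper-Pearson, on recovered reads) covers counting error only. Smad4 itself had 21.3 RPKM at 39.5 °C and 20.7 RPKM at 37 °C in the libraries labelled Smad4 KO, against 14.2 RPKM and 14.0 RPKM in WT at the same temperatures, so it was higher and not lower under the KO label. Reads pooled over all exons of a gene do not reveal whether some of them are missing, and the genotype direction below rests on the label. The 10 T cell markers summed to 2314 and 2454 RPKM under the KO label at 39.5 and 37 °C, against 1769 and 1996 RPKM in WT. The 7 Th17 markers, which include Il17a and Il17f, summed to 563 and 362 RPKM under the KO label, against 2200.0 and 764 RPKM in WT. The 6 Treg markers summed to 467 and 697 RPKM under the KO label, against 491 and 498 RPKM in WT, nearly all of it Il2ra and Ctla4. Within that list Foxp3, the factor of regulatory T cells, was lower under the KO label, with a ratio to WT of 0.0934 (0.0641 to 0.132) at 39.5 °C and 0.253 (0.209 to 0.305) at 37 °C. Lrrc32, which encodes GARP, the surface anchor of latent TGF-β, was higher, with 15.1 and 61.6 RPKM under the KO label at 39.5 and 37 °C, against 0.674 and 1.99 RPKM in WT. In bulk RNA, fewer cells of a type and less RNA per cell cannot be told apart. Sums were low for markers of other cells. The 12 myeloid and dendritic markers summed to 8.63 and 4.30 RPKM under the KO label at 39.5 and 37 °C, against 6.48 and 2.98 RPKM in WT, and most of this was Cd68. B cell markers summed to 3.85 and 9.0 RPKM under the KO label, against 4.61 and 14.4 RPKM in WT, nearly all Ighm. CD8 and NK markers summed to 9.81 and 6.26 RPKM under the KO label, against 12.0 and 6.69 RPKM in WT. Of these lists, 5 myeloid, 6 B cell and 5 CD8 and NK genes were not analysed here. The part of these marker differences in the results below was not tested.

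Promoter sequences of 3 of the 7 genes could be matched in RefSeq (GRCm38.p6, 250 bases before the start of the gene, printed up to the annotated first exon). The 3 shown are those matched, and were not picked for their results. They let the sequence before Rora and Batf, which fell under the KO label in the fit described below, be read beside that of Irf4, which varied least. All lie on the plus strand, at chr9:68653536-68653785 for Rora, chr12:85686470-85686668 for Batf and chr13:30748983-30749225 for Irf4. Capitals mark matches to the motifs searched.
Rora: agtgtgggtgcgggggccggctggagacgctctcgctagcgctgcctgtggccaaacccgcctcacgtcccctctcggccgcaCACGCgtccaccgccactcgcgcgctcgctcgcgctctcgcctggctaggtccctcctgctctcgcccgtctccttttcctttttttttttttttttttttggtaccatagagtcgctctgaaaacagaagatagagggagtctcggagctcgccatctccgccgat
Batf: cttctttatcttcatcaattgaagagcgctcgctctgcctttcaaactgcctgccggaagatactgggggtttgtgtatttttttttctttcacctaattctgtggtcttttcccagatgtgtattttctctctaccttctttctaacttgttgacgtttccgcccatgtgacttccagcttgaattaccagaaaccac
Irf4: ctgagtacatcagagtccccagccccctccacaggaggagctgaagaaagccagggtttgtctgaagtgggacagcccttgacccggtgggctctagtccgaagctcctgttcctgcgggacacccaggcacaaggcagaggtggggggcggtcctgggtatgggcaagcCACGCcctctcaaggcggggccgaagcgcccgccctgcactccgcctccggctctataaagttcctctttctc
Both strands were searched for 6 motifs, which were TGANTCA (AP-1), GAAANNGAA (IRF), CACGTG (E-box), GCGTG (the AHR core), AGGTCA (ROR) and GTCTAGAC (the SMAD palindrome). In these windows only the AHR core matched, on the minus strand and so printed as CACGC, from position −167 in Rora and from −80 in Irf4, counted from the RefSeq start. It is a frequent motif, present in 28.2% of 32851 RefSeq promoters of the same window, against 6.75% for AP-1, 7.13% for IRF, 6.02% for the E-box, 14.0% for ROR and 0.167% for the SMAD palindrome. A match of these letters is a description of the sequence and not a binding site.

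In level, the 7 genes fell into an order that was nearly the same in every library. Irf4 was the highest, with a mean of 468 RPKM over the 4 libraries. It lay between the 98.9 and 99.3 percentiles of all 19555 rows. Bhlhe40 (mean 101 RPKM) and Batf (mean 85.1 RPKM) came next, and their ranges overlapped. Maf followed with a mean of 44.9 RPKM, and its highest value, 57.6 RPKM, was above the lowest Batf value, 46.6 RPKM. Ahr had a mean of 20.4 RPKM, and the lowest Maf value, 33.3 RPKM, was above the highest Ahr value, 29.7 RPKM. Rora (mean 4.56 RPKM) and Nfkbiz (mean 3.83 RPKM) were the lowest, and they changed places. Rora was last of the 7 in both libraries labelled Smad4 KO, and Nfkbiz was last in both WT libraries. Variation across libraries did not follow level. The highest Rora value was 4.57 times its lowest, and the same ratio was 2.98 for Bhlhe40, 2.49 for Batf, 2.43 for Ahr, 1.87 for Nfkbiz, 1.73 for Maf and 1.36 for Irf4.

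**Figure D1:**
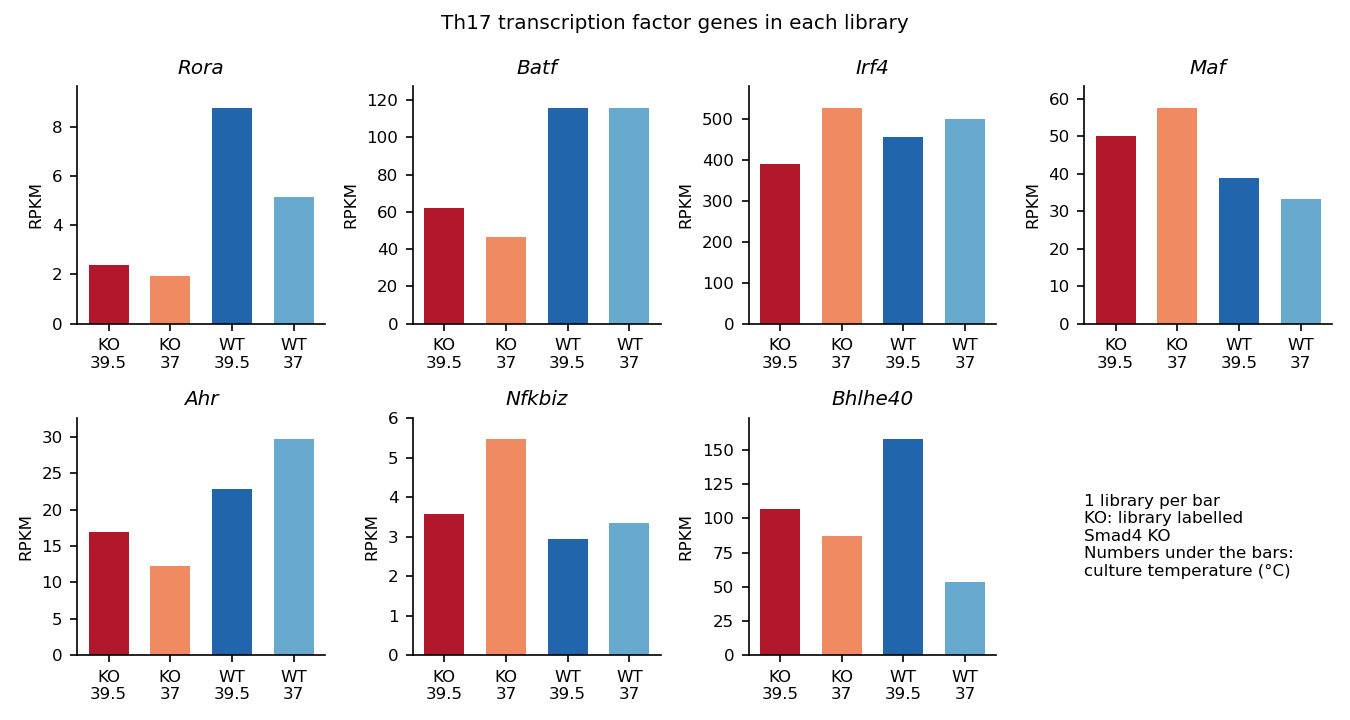
Level of each of the 7 factor genes in RPKM (vertical axis, from 0, own scale for each gene) in the 4 libraries, 1 bar per library, with the libraries labelled Smad4 KO to the left of WT. Rora, Batf and Ahr have both KO-label bars below both WT bars, and Maf and Nfkbiz have both above. Bhlhe40 has its highest bar, 158 RPKM, in WT at 39.5 °C and its lowest, 53.1 RPKM, in WT at 37 °C.

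Rora encodes RORα, a retinoid-related orphan receptor of Th17 cells. The gene (chromosome 9, 68653786 to 69388246, plus strand of GRCm38) had 2.38 RPKM (572 reads) at 39.5 °C and 1.93 RPKM (444 reads) at 37 °C in the libraries labelled Smad4 KO. In WT it had 8.80 RPKM (2220 reads) at 39.5 °C and 5.14 RPKM (1223 reads) at 37 °C. Both libraries under the KO label were thus below both WT libraries. At 39.5 °C its ratio of KO label to WT was 0.270 (0.246 to 0.296), and at 37 °C it was 0.375 (0.336 to 0.418), with 95% intervals in parentheses here and below. Heat went with a higher Rora level in both genotypes, by a ratio of 39.5 to 37 °C of 1.23 (1.09 to 1.40) under the KO label and 1.71 (1.60 to 1.84) in WT.

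Batf (chromosome 12, 85686669 to 85709087, plus strand) was also lower under the KO label. It had 61.9 RPKM (1603 reads) at 39.5 °C and 46.6 RPKM (1155 reads) at 37 °C in the libraries labelled Smad4 KO, against 116 RPKM (3154 reads) and 116 RPKM (2962 reads) in WT at the same temperatures. The ratio of KO label to WT was 0.533 (0.502 to 0.566) at 39.5 °C and 0.403 (0.376 to 0.431) at 37 °C. In WT the ratio of 39.5 to 37 °C was 1.0 (0.955 to 1.06), whereas under the KO label it was 1.33 (1.23 to 1.44).

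Irf4, which encodes the partner of BATF on DNA, did not share this pattern. The gene (chromosome 13, 30749226 to 30766976, plus strand) had 389 RPKM (35137 reads) at 39.5 °C and 528 RPKM (45678 reads) at 37 °C under the KO label, against 456 RPKM (43176 reads) and 499 RPKM (44578 reads) in WT. The KO-label libraries were the lowest and the highest of the 4, so the genotypes overlapped. Both genotypes had less Irf4 at 39.5 °C, with a ratio of 39.5 to 37 °C of 0.737 (0.727 to 0.747) under the KO label and 0.914 (0.902 to 0.926) in WT. The ratio of KO label to WT was 0.853 (0.842 to 0.866) at 39.5 °C and 1.06 (1.04 to 1.07) at 37 °C. With the libraries scaled to their total reads, the log2 ratio at 37 °C was 0.0016.

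Maf (chromosome 8, 115682942 to 115707794, minus strand), a bZIP factor, was higher under the KO label. It had 50.1 RPKM (7608 reads) at 39.5 °C and 57.6 RPKM (8366 reads) at 37 °C there, against 38.8 RPKM (6176 reads) and 33.3 RPKM (4995 reads) in WT, and the genotypes did not overlap. Its ratio of KO label to WT was 1.29 (1.25 to 1.34) at 39.5 °C and 1.73 (1.67 to 1.79) at 37 °C. The ratio of 39.5 to 37 °C was 0.871 (0.845 to 0.899) under the KO label and 1.17 (1.12 to 1.21) in WT, which lie on opposite sides of 1.

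Ahr (chromosome 12, 35497974 to 35535038, minus strand) was lower under the KO label at both temperatures. Its level was 16.9 RPKM (1915 reads) at 39.5 °C and 12.2 RPKM (1326 reads) at 37 °C in the libraries labelled Smad4 KO, against 22.9 RPKM (2723 reads) and 29.7 RPKM (3334 reads) in WT. The difference was wider at 37 °C, where the ratio of KO label to WT was 0.411 (0.385 to 0.438), than at 39.5 °C, where it was 0.738 (0.695 to 0.782). At 39.5 °C the gene was higher than at 37 °C under the KO label, with a ratio of 1.38 (1.29 to 1.49), and lower in WT, with a ratio of 0.771 (0.732 to 0.811).

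Nfkbiz (chromosome 16, 55811375 to 55838899, minus strand) had 3.57 RPKM (330 reads) at 39.5 °C and 5.47 RPKM (484 reads) at 37 °C under the KO label, against 2.93 RPKM (284 reads) and 3.35 RPKM (306 reads) in WT. Both KO-label libraries were above both WT libraries, by a ratio of 1.22 (1.04 to 1.43) at 39.5 °C and 1.63 (1.41 to 1.89) at 37 °C. The ratio of 39.5 to 37 °C was 0.653 (0.566 to 0.753) under the KO label. In WT it was 0.876 (0.742 to 1.03), an interval that takes in 1, so a WT difference was not detectable at this depth.

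Bhlhe40 (chromosome 6, 108660629 to 108666925, plus strand) had the widest temperature difference of the 7. In WT it had 158 RPKM (14341 reads) at 39.5 °C and 53.1 RPKM (4547 reads) at 37 °C, a ratio of 2.98 (2.88 to 3.08). Under the KO label it had 107 RPKM (9249 reads) at 39.5 °C and 86.9 RPKM (7214 reads) at 37 °C, a ratio of 1.23 (1.19 to 1.27). Both KO-label values lay between the WT values. The ratio of KO label to WT was therefore below 1 at 39.5 °C, at 0.676 (0.659 to 0.694), and above 1 at 37 °C, at 1.64 (1.58 to 1.70).

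Exons of Rora, Maf, Ahr and Bhlhe40 overlap exons of a gene on the opposite strand in GENCODE (Gm15511, Gm15655, Gm48236 and 0610040F04Rik in that order), none of which was analysed here. The sources used here do not say whether reads kept their strand, so reads of such a partner cannot be told apart from those of the factor gene.

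**Figure D2:**
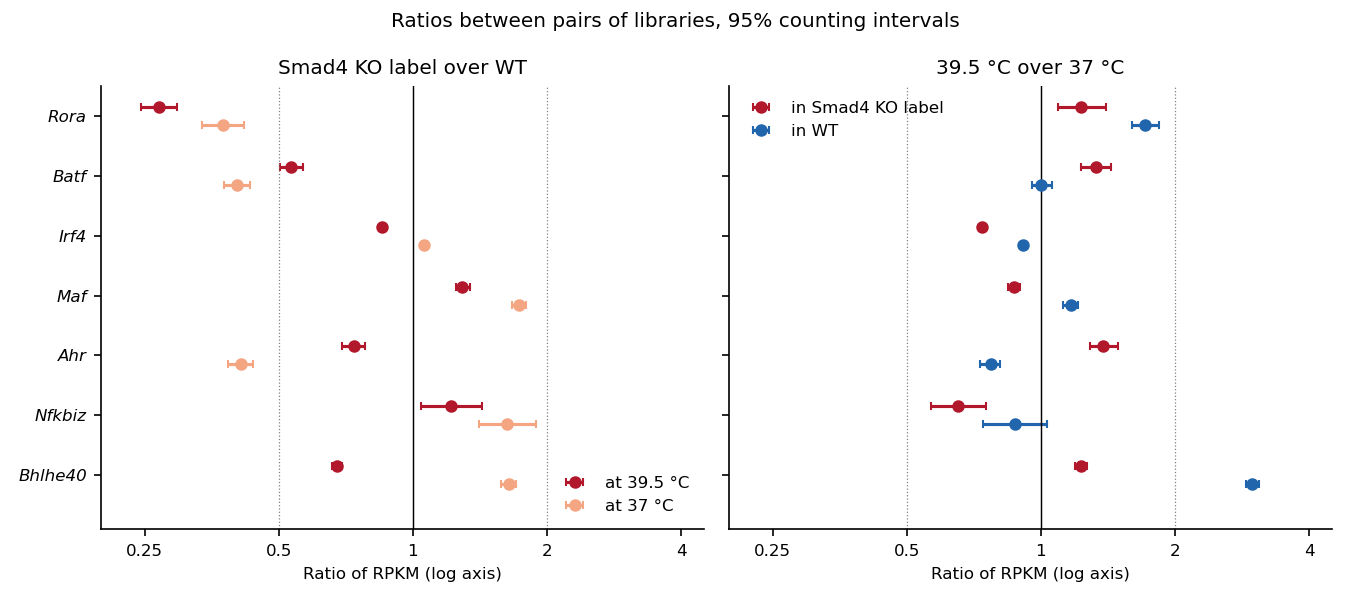
Ratio of RPKM between pairs of libraries for each gene (horizontal log axis), with KO label over WT on the left and 39.5 over 37 °C on the right. Points are ratios, bars are 95% counting intervals that hold no replicate spread, and dotted lines mark 2-fold. Rora lies furthest to the left in the genotype panel at 39.5 °C (0.270) and Bhlhe40 in WT furthest to the right in the temperature panel (2.98).

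Each pair of libraries was then read against the 13715 genes with a mean of at least 1 RPKM, among which all 7 factors fell. A gene was called when log2(RPKM + 1) differed by 2-fold or more, a rule of size with no p-value, and on this scale changes of low genes such as Rora and Nfkbiz are understated. At 37 °C, 3 of the 7 were at least 2-fold lower under the KO label than in WT, Batf (log2 −1.29), Ahr (−1.22) and Rora (−1.07), and none was 2-fold higher. Among all genes 1.14% were 2-fold lower and 4.70% 2-fold higher in that pair. At 39.5 °C Rora (−1.54) was past the rule on the low side and none on the high side, against 1.05% and 2.30% of all genes, and Batf fell just short at −0.90. The median log2 ratio of KO label to WT was −0.42 over the 7 at 39.5 °C, against 0.00 over all genes, and 0.08 at 37 °C, against −0.01. At 39.5 °C 2 of the 7 were above 0 and 5 below, and at 37 °C 4 were above 0 and 3 below, so the 7 did not move as a block.

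For temperature in WT, Bhlhe40 (log2 1.56) was the member past 2-fold on the high side, and none was on the low side, against 1.46% and 0.525% of all genes. Under the KO label none of the 7 was past 2-fold in either direction, against 0.751% of all genes higher and 0.911% lower, and the widest values were −0.50 for Nfkbiz and 0.44 for Ahr. The median of the 7 was 0.21 under the KO label and 0.01 in WT, against −0.01 and −0.02 over all genes.

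**Figure D3:**
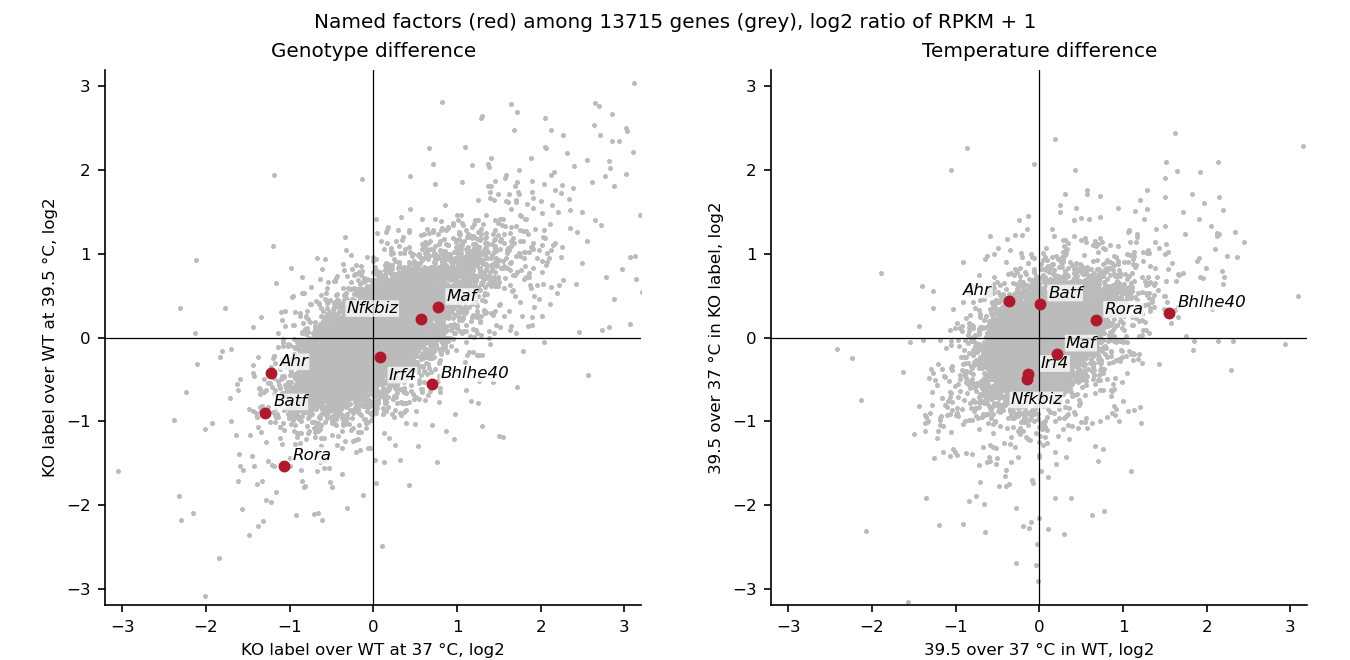
The 7 factor genes (red, named) among 13715 genes (grey). The left panel sets the log2 ratio of KO label to WT at 39.5 °C (vertical) against that at 37 °C (horizontal), and the right panel the log2 ratio of 39.5 to 37 °C under the KO label (vertical) against that in WT (horizontal), all on the log2(RPKM + 1) scale. Rora, Batf and Ahr are on the low side of both genotype axes, Maf and Nfkbiz on the high side of both, and Bhlhe40 at 1.56 and 0.29 stands to the right in the temperature panel. 11 genes of the left panel and 0 of the right lie beyond the axis limits of 3.2.

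To compare the heat response of the genotypes, the ratio of 39.5 to 37 °C under the KO label was divided by that in WT. The quotient was 0.413 (0.394 to 0.432) for Bhlhe40, 0.721 (0.625 to 0.831) for Rora, 0.746 (0.603 to 0.924) for Nfkbiz, 0.747 (0.712 to 0.784) for Maf and 0.807 (0.791 to 0.822) for Irf4. Batf, at 1.32 (1.21 to 1.45), and Ahr, at 1.80 (1.65 to 1.96), stood on the other side of 1. Of the 7, Bhlhe40 (log2 −1.26) was past 2-fold on the low side and none on the high side, against 1.55% and 0.671% of all genes. The median of the 7 was −0.36, against −0.00 over all genes. No test of these differences can be had, since 1 library a group leaves nothing to estimate an error from once they are fitted.

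Differences shared by both temperatures or both genotypes were tested in an additive limma fit of genotype and temperature over the 4 libraries, with Benjamini-Hochberg adjustment over all 13715 genes. The error in this fit is the departure from additivity, with 1 residual degree of freedom, moderated towards a trend over all genes. The labels do not say whether libraries came from separate animals or cultures, so its p-values do not measure a spread between animals. Rora and Batf fell under the KO label. For Rora the genotype term (KO label minus WT) was log2 −1.30 ± 0.16 (SE), with a limma adjusted p = 0.0157, and both KO-label libraries were lower than both WT libraries. For Batf it was −1.10 ± 0.14, with a limma adjusted p = 0.016, again with both KO-label libraries lower. These 2 of 7 compare with 4.70% of all genes that fell, and none of the 7 against 8.57% that rose. Smad4, which is not among the 7, passed the same fit as higher under the KO label. Its genotype term was 0.54 ± 0.12, with a limma adjusted p = 0.0454. Scaling the libraries to total reads moved the split over all genes, so that 996 genes were called higher and 997 lower, against 1176 higher and 644 lower as deposited. With no minimum mean, limma adjusted p was 0.063 for Rora and 0.0561 for Batf, and no gene in the table passed.

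The other 5 did not pass for genotype. Ahr had a term of −0.82 ± 0.21 (limma adjusted p = 0.0596) and Maf 0.57 ± 0.15 (limma adjusted p = 0.0613), both close to the threshold of 0.05. Values were 0.40 ± 0.15 for Nfkbiz (limma adjusted p = 0.134), 0.07 ± 0.29 for Bhlhe40 (limma adjusted p = 0.885) and −0.07 ± 0.12 for Irf4 (limma adjusted p = 0.695). The Bhlhe40 term had the largest error of the 7, and it turned to −0.01 when libraries were scaled to total reads. The median genotype term was −0.07 over the 7 and −0.01 over all genes. None of the 7 was called for temperature by limma, against 0.0146% of all genes higher and 0.00729% lower. The largest temperature terms were those of Bhlhe40 (0.92 ± 0.29, limma adjusted p = 0.263) and Rora (0.44 ± 0.16, limma adjusted p = 0.324). These 2 of the 7 were under 0.05 before adjustment, as were 983 genes higher and 931 lower among all 13715. Limma-voom on the recovered reads called 0 of the 7, against 225 genes higher and 127 lower.

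Genes that work with each factor were then examined in the same fit. Calls below are limma calls for genotype at an adjusted p under 0.05, and each count is to be read against the 8.57% of all genes that rose and the 4.70% that fell under the KO label in that fit. Of 12 listed AP-1 and IRF partners of BATF and IRF4, 10 had a mean of at least 1 RPKM, and 4 of them rose under the KO label while none fell, against 8.57% and 4.70% of all genes. Batf3, the paralog of Batf, moved opposite to it. It had 15.3 RPKM (450 reads) and 8.24 RPKM (232 reads) under the KO label at 39.5 and 37 °C, against 2.79 RPKM (86 reads) and 0.309 RPKM (9 reads) in WT, with a genotype term of 2.46 ± 0.20 and a limma adjusted p = 0.00937. Batf3 relative to Batf was at 0.247 and 0.177 under the KO label at 39.5 and 37 °C, against 0.0240 and 0.0027 in WT. The JUN family genes Junb and Jund, whose proteins dimerise with BATF, had 514 and 604 RPKM (Junb) and 201 and 209 RPKM (Jund) under the KO label at 39.5 and 37 °C. In WT they had 361 and 394 RPKM (Junb) and 125 and 151 RPKM (Jund), with genotype terms of 0.56 (limma adjusted p = 0.0292) and 0.57 (limma adjusted p = 0.0381). Irf2bp2, which encodes an IRF2-binding corepressor, had a term of 0.58 (limma adjusted p = 0.0381). Irf8, an IRF that can also join AP-1 factors on DNA, did not pass for genotype or temperature, with 7.14 and 31.2 RPKM under the KO label at 39.5 and 37 °C, against 6.36 and 10.6 RPKM in WT. The AP-1 family genes Atf3, Fos and Fosl2 did not pass either. Atf3 had 2.07 and 1.29 RPKM under the KO label at 39.5 and 37 °C, against 2.79 and 0.484 RPKM in WT. Fos had 1.39 and 3.76 RPKM under the KO label, against 1.37 and 1.07 RPKM in WT, and Fosl2 had 15.9 and 20.2 RPKM, against 14.3 and 9.56 RPKM in WT. For each of these 4 genes the ratio of KO label to WT was higher at 37 °C than at 39.5 °C, which was not tested. These 4 were named for a ratio past 2-fold without a call in the additive fit, a choice that favours such differences. Elsewhere in the list both directions occurred, with this ratio higher at 37 °C for Junb and at 39.5 °C for Jund. The list had a median log2 ratio of KO label to WT of 0.14 at 39.5 °C and 0.62 at 37 °C, against 0.00 and −0.01 over all genes.

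Among 14 measured genes of the ROR and STAT3 module, 2 rose (Il21r and Socs3) and 1 fell (Il6st) under the KO label. Among all genes 8.57% rose and 4.70% fell, so these counts are not far from the background. Il6st, which encodes gp130, the signal-transducing chain of the IL-6 receptor, had 2.85 and 2.61 RPKM under the KO label at 39.5 and 37 °C, against 5.14 and 4.43 RPKM in WT (term −0.63, limma adjusted p = 0.0391). Socs3, the feedback inhibitor of gp130 signalling, had 10.2 and 16.4 RPKM under the KO label, against 5.84 and 5.37 RPKM in WT (term 1.08, limma adjusted p = 0.031). Il21r, the IL-21 receptor gene, had a term of 0.96 (limma adjusted p = 0.0253). Il23r, the gene of the IL-23 receptor, had 4.13 and 1.53 RPKM under the KO label at 39.5 and 37 °C, against 6.66 and 2.25 RPKM in WT, and passed for neither term (limma adjusted p = 0.081 for genotype and 0.0728 for temperature). Over the list the median log2 ratio was −0.12 at 39.5 °C and 0.02 at 37 °C for KO label to WT.

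The AHR pathway list had 12 genes, of which 6 had a mean of at least 1 RPKM. Of these 6, 1 fell and none rose under the KO label, against 4.70% and 8.57% of all genes. Ptges3, which encodes the p23 chaperone of the AHR complex, fell under the KO label (30.6 and 25.9 RPKM at 39.5 and 37 °C, against 47.9 and 52.2 RPKM in WT, term −0.81, limma adjusted p = 0.0274). Arnt, the DNA-binding partner of AHR, had a term of −0.07 (limma adjusted p = 0.731). The classical AHR target genes Cyp1a1 and Cyp1b1 were too low to enter the fit. Cyp1b1 had 18 and 8 reads under the KO label at 39.5 and 37 °C, against 272 and 77 reads in WT, and its ratio of KO label to WT was 0.0694 (0.0405 to 0.112) at 39.5 °C and 0.107 (0.0447 to 0.222) at 37 °C. Cyp1a1 had 13 and 7 reads under the KO label, against 78 and 44 reads in WT, with ratios of 0.175 (0.0891 to 0.317) and 0.164 (0.0624 to 0.368). Both were therefore lower under the KO label at both temperatures by more than counting error. Both were named after their values were seen, and the listed genes Tiparp and Ahrr did not share the direction at both temperatures. Tiparp, an AHR-induced ADP-ribosyltransferase gene, had a ratio of 0.768 (0.606 to 0.972) at 39.5 °C and 1.26 (1.02 to 1.57) at 37 °C, with a genotype term of −0.01 (limma adjusted p = 0.985). Ahrr, the AHR repressor gene, was higher under the KO label at 39.5 °C, where its ratio was 1.42 (1.03 to 1.98), and at 37 °C its ratio was 0.904 (0.634 to 1.29). The median log2 ratio of the 6 measured genes was −0.02 at 39.5 °C and 0.00 at 37 °C.

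Of 6 MAF family genes 3 were measured, of which 1 rose and none fell, against 8.57% and 4.70% of all genes. Maff, a small MAF protein gene, rose under the KO label (13.1 and 16.2 RPKM at 39.5 and 37 °C, against 7.75 and 8.66 RPKM in WT, term 0.76, limma adjusted p = 0.0246). Of 9 genes linked to MAF, 1 rose and 2 fell, against 8.57% and 4.70% of all genes, so the count that rose is near the background. Il4, the Th2 cytokine gene, rose (1.37 and 3.60 RPKM under the KO label at 39.5 and 37 °C, against 0.0844 and 0.224 RPKM in WT, term 1.52, limma adjusted p = 0.0206), on 2 and 5 reads in WT. The follicular helper genes Cxcr5 (term −1.20, limma adjusted p = 0.0194) and Pdcd1, which encodes the PD-1 receptor (term −0.87, limma adjusted p = 0.0215), fell. Il10 had 0 reads at 39.5 °C and 32 reads at 37 °C under the KO label, against 53 and 50 reads in WT, and it did not pass (limma adjusted p = 0.0856). The median log2 ratio of KO label to WT was −0.46 at 39.5 °C and 0.03 at 37 °C for the MAF-linked genes, and 0.29 and 0.16 for the MAF family.

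In the IκB and NF-κB family, 10 of 10 genes were measured, of which 1 rose and 1 fell under the KO label. Among all genes 8.57% rose and 4.70% fell, so the count that rose is near the background. Bcl3, which like Nfkbiz encodes an atypical nuclear IκB, rose under the KO label, with 58.0 and 88.8 RPKM at 39.5 and 37 °C, against 29.8 and 48.5 RPKM in WT (term 0.90, limma adjusted p = 0.0165). Rel, the gene of the NF-κB subunit c-Rel, fell, with 2.20 and 2.17 RPKM under the KO label, against 4.36 and 3.89 RPKM in WT (term −0.69, limma adjusted p = 0.0352). Nfkbid, the third nuclear IκB gene here, had 20.7 and 27.1 RPKM under the KO label, against 19.4 and 44.6 RPKM in WT, and did not pass (limma adjusted p = 0.343). This family had a median log2 ratio of −0.02 at 39.5 °C and −0.13 at 37 °C.

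BHLHE40 shares E-box targets with the circadian clock and RORα shares response elements with the REV-ERB repressors, so 18 clock genes were listed and 14 were measured. Under the KO label 2 of the 14 fell and 2 rose, against 4.70% and 8.57% of all genes. The REV-ERB genes fell under the KO label. Nr1d1 had 8.12 and 7.06 RPKM at 39.5 and 37 °C there, against 12.6 and 14.4 RPKM in WT (term −0.76, limma adjusted p = 0.0329), and Nr1d2 had a term of −0.93 (limma adjusted p = 0.023). Per1 (term 0.61, limma adjusted p = 0.0383) and Ciart (term 0.66, limma adjusted p = 0.0333), which encode repressors of the clock, rose. Bhlhe41, the paralog of Bhlhe40, was under 1 RPKM in every library and was not tested. The list had median log2 ratios of 0.06 at 39.5 °C and −0.14 at 37 °C.

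Some Th17 effector genes had larger genotype terms than any of the 7 factors. Of 14 Th17 effector genes 13 were measured, 6 fell and 1 rose under the KO label, against 4.70% and 8.57% of all genes. Those that fell were the cytokine genes Il17a (term −2.55, limma adjusted p = 0.0137), Il17f (−1.76, limma adjusted p = 0.0151) and Il9 (−2.13, limma adjusted p = 0.00622), and the receptor genes Ccr6 (−2.24, limma adjusted p = 0.00616), Cxcr6 (−1.61, limma adjusted p = 0.0157) and Il1r1 (−1.53, limma adjusted p = 0.0317). Ccl20, the ligand of CCR6, rose (0.71, limma adjusted p = 0.0236). Il24, an IL-10 family cytokine gene, did not pass (limma adjusted p = 0.474), with 0.314 and 3.97 RPKM under the KO label at 39.5 and 37 °C, against 0.972 and 0.515 RPKM in WT. The list had a median log2 ratio of KO label to WT of −1.63 at 39.5 °C and −0.38 at 37 °C. Il9 was also the gene of this list called for temperature (term 1.95, limma adjusted p = 0.0406), with 9.22 and 1.59 RPKM under the KO label at 39.5 and 37 °C, against 42.8 and 10.5 RPKM in WT.

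Of 16 factors tied to other helper fates 12 were measured, of which 3 fell and 1 rose under the KO label. Among all genes 4.70% fell and 8.57% rose, so the count that rose is near the background. Foxp3 fell (0.477 and 1.98 RPKM under the KO label at 39.5 and 37 °C, against 5.10 and 7.80 RPKM in WT, term −1.81, limma adjusted p = 0.0125). The Ikaros family gene Ikzf3 (term −1.24, limma adjusted p = 0.0148) and the zinc finger repressor gene Gfi1 (term −0.65, limma adjusted p = 0.0328) also fell, and Runx3 rose (term 0.91, limma adjusted p = 0.0167). Tbx21 and Gata3, the factors of Th1 and Th2 cells, were low, with 1.81 and 0.501 RPKM (Tbx21) and 1.75 and 1.03 RPKM (Gata3) under the KO label at 39.5 and 37 °C, against 1.46 and 0.419 RPKM and 1.90 and 0.662 RPKM in WT. The median log2 ratio of KO label to WT was −0.03 at 39.5 °C and 0.03 at 37 °C.

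**Figure D4:**
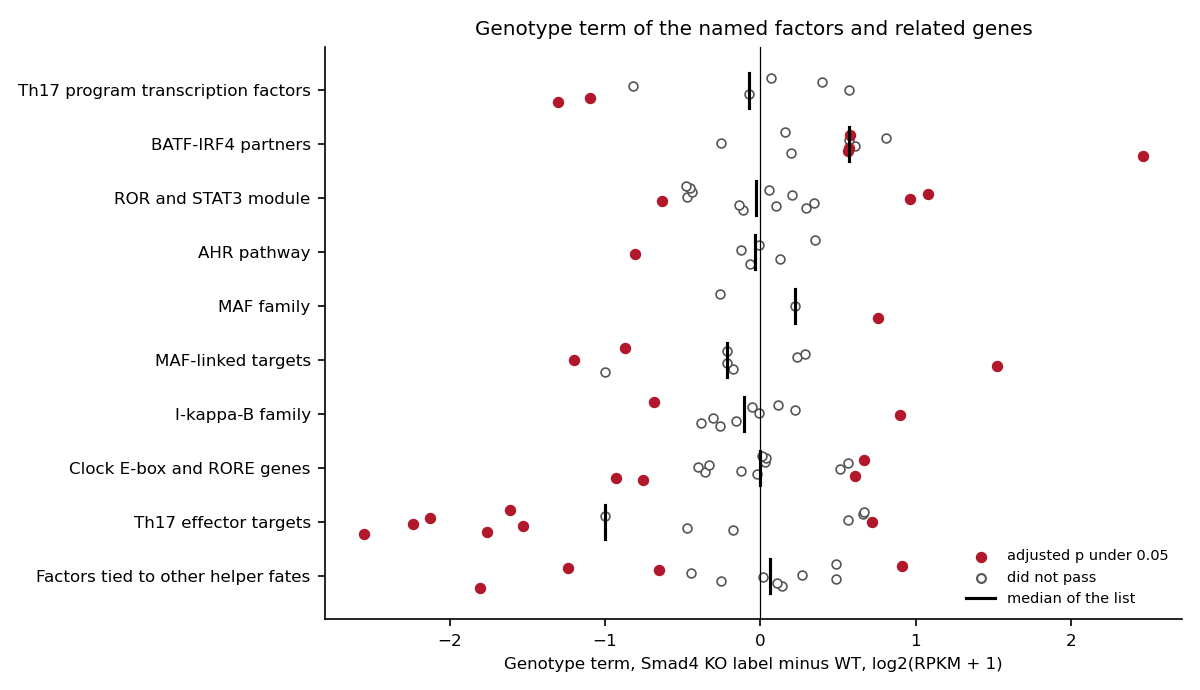
Genotype term (KO label minus WT, log2(RPKM + 1), horizontal axis) of the 7 factors in the top row and of 9 lists of related genes below, 1 point per measured gene. Filled points passed the limma test at an adjusted p under 0.05, and vertical bars are list medians. Rora and Batf are the filled points of the top row, Batf3 at 2.46 is the point furthest right among the BATF-IRF4 partners, and most filled Th17 effector points lie to the left of 0.

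The genes most like a factor in pattern were sought among 8945 genes with a mean of at least 5 RPKM, for the 4 factors whose log2(RPKM + 1) spanned 1 or more. Likeness was the Euclidean distance between centred log2(RPKM + 1) values over the 4 libraries, which describes these libraries only. Nearest to Rora were Aplp2, an amyloid precursor-like gene (distance 0.143), Mdfic (0.169) and the stress-inducible gene Gadd45b (0.190). Aplp2 had 13.2 and 11.5 RPKM under the KO label at 39.5 and 37 °C, against 39.7 and 27.9 RPKM in WT. For Batf the nearest named gene was Pno1, a factor of small ribosomal subunit assembly (0.073), with 26.3 and 18.3 RPKM under the KO label, against 47.1 and 47.5 RPKM in WT. For Ahr they were 3110082I17Rik (0.092) and the small nucleolar RNA gene Snord49a (0.099). For Bhlhe40 the nearest gene with an annotated name was Sesn2, a stress-induced sestrin (0.132), with 16.1 and 12.1 RPKM under the KO label, against 25.6 and 7.19 RPKM in WT. Irf4, Maf and Nfkbiz varied too little, with spans of 0.44, 0.77 and 0.72.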

How the data were processed

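RNA-seq was made from total RNA extracted with Trizol and built into libraries with a NEXTflex kit, per the labels' protocols. The genome build mm10 and the tools Bowtie2, Trim Galore 0.4.4, edgeR, Subread and featureCounts are named, without their roles, per the submitters' processing notes. The authors deposited 1 table of RPKM values per library, with 19555 rows. Groups came from the genotype and treatment labels.

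RPKM values are not counts, so no count test was the main test. Whole reads came back when the values were multiplied by library size and exon length. Of 13144 rows that matched 1 GENCODE M21 name, 12053 (91.7%) were whole in all libraries at that length within 0.01 reads, and with a free length 19553 of 19555 rows were whole within 0.003 reads. Library sizes behind the RPKM values ran from 0.955 to 1.058 times the recovered reads, so the deposited values carry a scaling other than total reads.

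Values were analysed as log2(RPKM + 1), with a pseudocount of 1, for genes whose mean reached 1 RPKM. Pairs of libraries were compared by a 2-fold rule and by ratios with Clopper-Pearson 95% intervals (SciPy 1.17.1). Intervals cover counting error only, as reads copied by PCR and carrying no molecular identifiers are not separate molecules. Shared terms were fitted with limma 3.58.1 in R 4.3.3 with a variance trend (median prior degrees of freedom 4.475). The 7 genes and all lists were chosen with earlier results of these data known. Genes named from a list were those that passed the fit, otherwise up to 4 with the largest ratio past 2-fold, and some low or uncalled genes (Arnt, Ahrr, Tiparp, Cyp1a1, Cyp1b1, Bhlhe41, Tbx21, Gata3, Lrrc32) were added after their values were seen. Alternatives were other pseudocounts, minimum means, scalings, a fit without the trend, a 1.5-fold rule and limma-voom on recovered reads. Scaling to total reads was chosen after seeing the data. Values of 1 listed gene are not reported here.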

Additional observations from a re-analysis of the deposited data

Results flagged for a closer look

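Opposite directions between groups marked 4 of the factors. None of these differences was tested, since each group had 1 library, and no cause was tested. The temperature response of Ahr was upward under the KO label and downward in WT, a difference of 0.80 on the log2(RPKM + 1) scale. That of Maf was downward under the KO label and upward in WT, a difference of −0.41. Bhlhe40 was lower under the KO label than in WT at 39.5 °C and higher at 37 °C, a difference between temperatures of −1.26. Irf4 was likewise lower under the KO label at 39.5 °C and higher at 37 °C, a difference of −0.31, but its 37 °C value was 0.0016 when libraries were scaled to total reads.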

How the results depend on the processing

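With a 1.5-fold rule in place of 2-fold, the count of factors called became 2 for temperature in WT, both higher, where 5.32% of all genes were higher. It became 2 for genotype at 39.5 °C, both lower, where 6.38% of all genes were lower. It became 5 for genotype at 37 °C, 3 lower and 2 higher, against 7.35% and 11.5% of all genes, and 2 for the difference in temperature response, 1 lower and 1 higher, against 5.97% and 3.85%. A minimum mean of 5 RPKM removed Rora and Nfkbiz, and then 0 were called for genotype at 39.5 °C. For the limma genotype term, 2 factors were called as reported, 0 with no minimum mean, where 0 of 19555 genes passed, and 4 by limma-voom, which added Maf and Ahr and called 1626 genes higher and 1288 lower, against 1176 and 644 as reported. Ahr also passed with upper quartile scaling, scaling to total reads and a minimum mean of 5 RPKM, and Maf with the last of these. Over all genes, upper quartile scaling called 1340 higher and 939 lower, and scaling to total reads 996 and 997. The minimum mean of 5 RPKM called 1365 higher and 866 lower of 8947 genes. The Bhlhe40 genotype term turned to −0.01 with scaling to total reads. The cause was not tested. Temperature calls over all genes ran from 0 (no minimum mean, medians set equal, no variance trend) to 225 higher and 127 lower (limma-voom), with 0 factors called in each. Of the factors' pair ratios and differences of temperature ratios under alternatives, 218 stayed within their counting intervals and 17 did not. Those intervals were normal approximations on the log scale from recovered reads. Each group had 1 library, so leaving out a library gave no test. No paired analysis was possible because each group has 1 library and the labels give no replicate numbers.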
